A study of Mus musculus with 9 samples.

Results

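The bone morphogenetic protein (BMP) pathway was read in mouse embryonic stem (ES) cells through 10 genes: the ligand genes Bmp2 and Bmp4, the target genes Id1, Id2, Id3, Id4, Smad6, Msx1 and Msx2, and the antagonist gene Grem1. Their probes were found by RefSeq accession, which gave 11 probes of 10 genes among 55681 probes and 20660 named genes on the array. All 10 genes were among the 15011 genes that passed the filter on dim probes, although Bmp2 was well above background on 6 of 9 arrays and Smad6 on 8. The other 8 were well above background on all 9.

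The arrays compared a PKm1 knock-in line, a PKm2 knock-in line and a wild type line. Pyruvate kinase M makes the last step of glycolysis, and its M1 and M2 forms are alternative splice products of Pkm; the labels say of the alleles only that they are knock-ins. Each line was sampled undifferentiated in medium with LIF, the cytokine that holds mouse ES cells in self-renewal (day 0), and as embryoid bodies, floating aggregates grown without LIF, at day 3 and day 7. There was 1 array per line and day, 9 in all, so the 3 lines were the only repeats of a day and the 3 days the only repeats of a line. Each genotype was 1 cell line, nothing says that the samples came from separate cultures, and p-values measure only the spread between these arrays.

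BMPs are secreted dimers that bring together receptor kinases at the cell surface. The activated receptors phosphorylate SMAD1, SMAD5 and SMAD9, which enter the nucleus with SMAD4 and switch on target genes. Among these are the Id genes and the feedback inhibitor gene Smad6. Antagonists such as Gremlin 1 bind the ligands outside the cell and keep them from the receptors. In mouse ES cells BMP4 acting through Id proteins is known to work beside LIF against neural differentiation, and in embryoid bodies BMP2 is known from the visceral endoderm, the outer layer that secretes carrier proteins.

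The sequences just upstream of 4 genes are shown because their genes lead the results: Grem1 and Id4 were called lower at day 3, and Id3 and Id2 moved most among the other Id genes. RefSeq (GRCm38.p6) gave the 250 bases upstream for 8 of the 10 genes. For Smad6, on the minus strand, this window overlapped the gene as listed (window from 64022060, gene end at 64022085). Capitals mark the SMAD motifs GGCGCC and CAGAC, read on both strands (CAGAC on the other strand is GTCTG), and no motif overlapped another.
Grem1, chr2:113758649-113758898, minus strand: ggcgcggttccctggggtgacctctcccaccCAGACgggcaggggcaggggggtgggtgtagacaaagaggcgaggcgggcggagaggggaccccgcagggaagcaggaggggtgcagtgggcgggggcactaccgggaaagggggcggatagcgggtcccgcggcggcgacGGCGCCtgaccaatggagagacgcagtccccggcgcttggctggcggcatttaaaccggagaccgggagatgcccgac
Id4, chr13:48260866-48261115, plus strand: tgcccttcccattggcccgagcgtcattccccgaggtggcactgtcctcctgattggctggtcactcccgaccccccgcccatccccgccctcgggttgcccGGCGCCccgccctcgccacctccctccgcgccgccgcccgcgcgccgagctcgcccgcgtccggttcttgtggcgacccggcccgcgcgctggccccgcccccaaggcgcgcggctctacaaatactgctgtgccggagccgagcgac
Id3, chr4:136143572-136143821, plus strand: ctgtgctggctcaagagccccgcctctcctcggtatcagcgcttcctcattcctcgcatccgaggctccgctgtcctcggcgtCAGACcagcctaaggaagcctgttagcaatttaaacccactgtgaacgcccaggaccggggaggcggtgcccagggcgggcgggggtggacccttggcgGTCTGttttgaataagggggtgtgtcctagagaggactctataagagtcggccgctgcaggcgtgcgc
Id2, chr12:25096093-25096342, minus strand: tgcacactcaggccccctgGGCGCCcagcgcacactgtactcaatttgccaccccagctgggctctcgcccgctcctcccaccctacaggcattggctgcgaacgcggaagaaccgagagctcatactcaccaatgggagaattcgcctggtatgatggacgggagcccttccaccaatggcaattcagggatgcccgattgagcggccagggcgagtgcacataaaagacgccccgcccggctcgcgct
GGCGCC, a GC-rich motif bound by SMAD1 and SMAD5, was in 3 of 8 windows (Id2, Id4 and Grem1) and in 9.59% of 32851 RefSeq windows of this length. CAGAC was in 2 of 8 (Id3, with 2 matches, and Grem1), against 42.2% of all windows, and the E-box CANNTG, the site of the E proteins that Id proteins bind, was in 4 of 8 (Bmp4, Id2, Msx1 and Msx2), against 66.2%. The GC content of the 8 windows was 61.6 to 75.6%, with a median of 52.4% over all windows. A match describes these letters and is no evidence of binding.

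Signals are log2 values of the background-subtracted intensity after each array was scaled to an equal 75th percentile, so 1 unit is a doubling, and levels can be compared for 1 probe between arrays but not between genes. The share of spots well above background ran between 54.2 and 61.6% over the arrays, with 0 saturated spots. The lowest detected signals lay between 3.90 and 4.596. The single Pkm probe read 13.58, 14.72 and 13.93 at days 0, 3 and 7 in PKm1 knock-in cells, 13.78, 14.30 and 13.60 in the PKm2 knock-in line, and 13.64, 16.10 and 14.67 in wild type. Which exons this probe covers was not determined, so it does not check the knock-ins. Of 10 pluripotency genes, all were detected on every array. The day 7 arrays stood apart from one another: the mean log2 signal of 11 visceral endoderm genes was 14.54 in the PKm1 knock-in line, 8.11 in the PKm2 knock-in line and 8.82 in wild type, against 5.14 to 6.02 on the other 6 arrays. The PKm2 knock-in day 7 array was also alone on its slide, so any value blocked by slide leaves it out. In these mixed cultures, fewer cells of a type and less RNA per cell cannot be told apart.

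**Figure D1:**
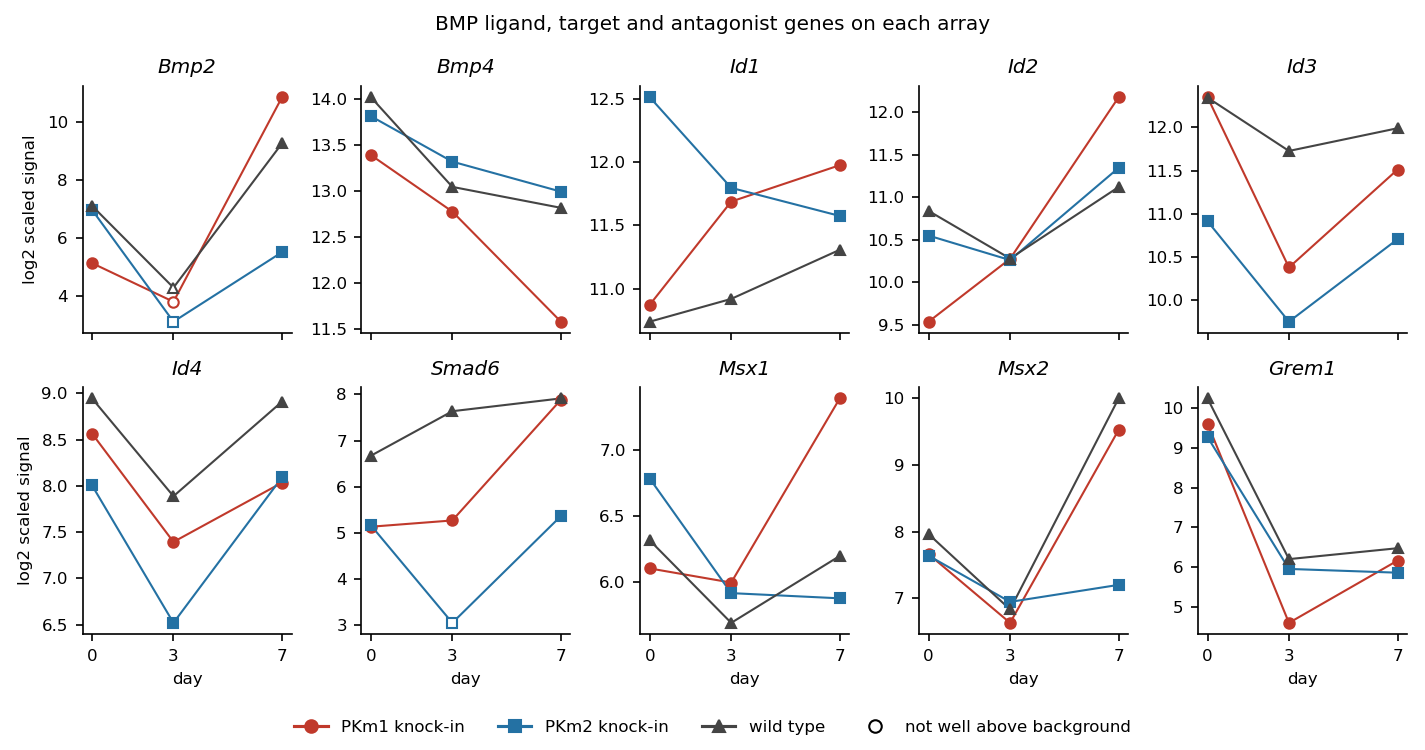
Log2 scaled signal of the 10 genes at days 0, 3 and 7 in the PKm1 knock-in, PKm2 knock-in and wild type lines, 1 array per point, with open points where the probe was not well above background and a separate y axis for each gene. Grem1 lay between 9.28 and 10.25 on the day 0 arrays and between 4.59 and 6.47 on the other 6, while Bmp2 was undetected on the day 3 arrays.

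Grem1, the secreted antagonist of BMP2 and BMP4, fell between undifferentiated cells and embryoid bodies in all 3 lines. The PKm1 knock-in line had log2 signals of 9.62, 4.59 and 6.16 at days 0, 3 and 7. It was 9.28, 5.95 and 5.86 in the PKm2 knock-in line and 10.25, 6.20 and 6.47 in wild type. Every day 0 array was above every day 3 and day 7 array. Grem1 averaged 5.58 ± 0.87 at day 3 and 9.72 ± 0.49 at day 0 (SD, n = 3 lines), a log2 change of -4.13 ± 0.36 (SE) or 17.6-fold lower, with a limma adjusted p of 0.0100. At day 7 it averaged 6.16 ± 0.31, against the same day 0 value, a change of -3.55 ± 0.36 or 11.7-fold lower (limma adjusted p = 0.0399). Day 7 against day 3 gave 0.58 ± 0.36 (limma adjusted p = 0.306). The day accounted for 93.2% of the sum of squares of Grem1 over the 9 arrays, the line for 3.59%.

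The size of the Grem1 fall depended on the background correction. With normexp background correction it was -2.94 at day 3 and -2.74 at day 7 (limma adjusted p = 0.00917 and 0.0241). The PKm1 knock-in day 3 signal, 4.59, lay close to the highest detection limit of an array, 4.596. Whether the fall was called depended on single arrays. At day 3 the change was -3.67 to -4.54 when an array or line was left out, and limma's adjusted p was 0.0619 when PKm1 knock-in day 0 was dropped, 0.0675 for wild type day 0, 0.0666 for wild type day 3, 0.120 for all PKm1 knock-in arrays and 0.178 for all wild type arrays. Within slide 1, where both days of the PKm2 knock-in line lay, it was -3.33, and blocking by slide gave a limma adjusted p of 0.0205. At day 7 the change was -3.46 within slide 2 (PKm1 knock-in) and -3.78 within slide 1 (wild type). There the slide block gave -3.41 with adjusted p = 0.0621, and the call was lost on dropping PKm1 knock-in day 0 or day 7, PKm2 knock-in day 0 or day 3, any wild type array, or either of the PKm1 knock-in and wild type lines whole (adjusted p = 0.0569 to 0.381).

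Markers of other cells fell with Grem1 at day 3. Of 17 fibroblast and feeder cell genes tested, 17 were lower at day 3 than at day 0 and 8 fell in limma, with a median log2 change of -2.90, where 43.2% of all genes were lower and 2.2% called lower. They were Col1a2, Col6a1, Col6a2, Col6a3, Dcn, Mgp, Ptx3 and Mmp3. Of these, Col6a2, Col6a3 and Ptx3 passed the filter on dim probes only through day 0 arrays, the side where they were high. The count of 8 is therefore set in part by the filter. The mean log2 signal of the 17 genes was 5.38 to 6.18 at day 3 and 5.57 to 7.66 at day 7, against 8.19 to 9.03 at day 0, and the summed signal was 5750 to 7691 and 3785 to 28698, against 16126 to 29688. Of the collagen and proteoglycan genes that define fibroblasts, Col1a1, Col1a2 and Dcn were detected on all 9 arrays. Col3a1 was detected on 8, Col6a1 on 7, Col6a2 and Col6a3 on 5 each, and Lum on too few arrays to be tested. Postn, of the same list, was detected at day 0 only in the PKm2 knock-in line (6.18). Against day 3, 14 of the 17 genes were higher at day 7, with a median of 0.93, where 58.1% of all genes were lower. Of 10 early response genes, 10 were lower at day 3, 6 of them called (Fos, Fosb, Jun, Egr1, Egr2 and Atf3), beside the same 2.2% of all genes. Among 10 pluripotency genes 7 were lower at day 3 and 3 higher, with 2 called lower. Across the 9 arrays, which share their libraries, Grem1 correlated with the fibroblast mean at r = 0.90 and with the early response mean at r = 0.93, and the part of either in the Grem1 fall was not tested. The use of feeder cells is not given in the sources used here.

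**Figure D2:**
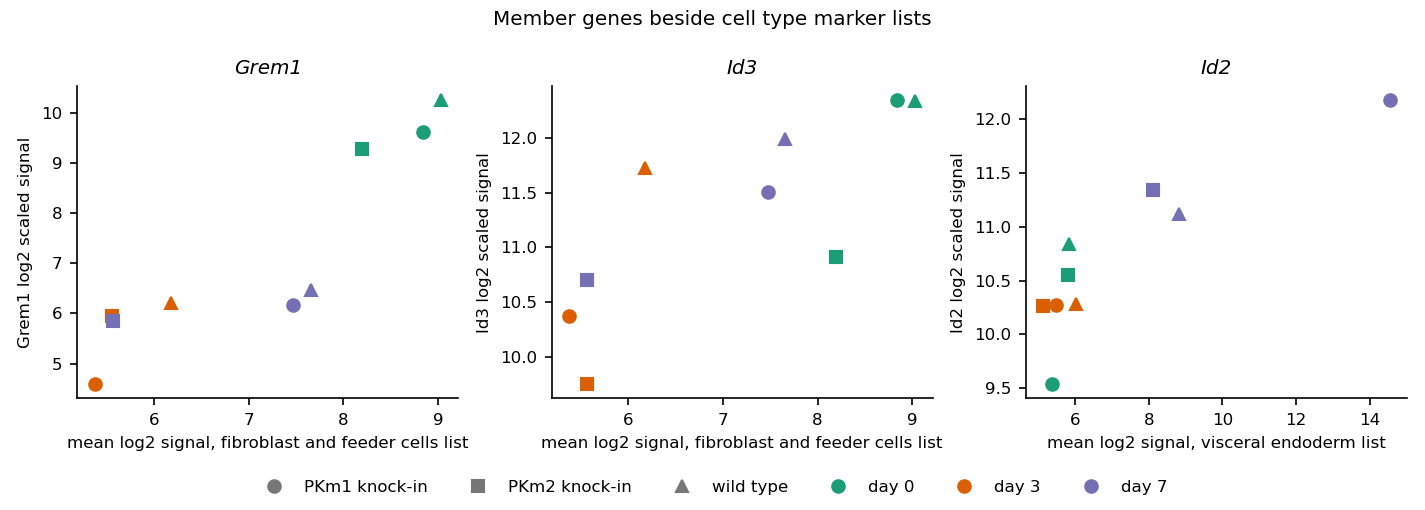
Log2 scaled signal of Grem1, Id3 and Id2 on each array (y axes) against the mean log2 signal of a marker list on the same array (x axes: fibroblast and feeder cells for Grem1 and Id3, visceral endoderm for Id2), with the line as the shape and the day as the colour of a point. The Grem1 panel sets 9 arrays against the fibroblast and feeder list (r = 0.90), whose day 0 arrays lie highest on both axes.

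Id4 was the other gene called at day 3. Id proteins pair with E proteins and keep them from binding DNA, and Id4 is known for its part in neural development. The PKm1 knock-in line read 8.56, 7.39 and 8.03 at days 0, 3 and 7 on the log2 scale, 8.01, 6.52 and 8.09 in the PKm2 knock-in line, and 8.94, 7.89 and 8.91 in wild type. In each line day 3 was the lowest of the 3 days, and the day 3 arrays did not overlap those of day 0 or day 7. Id4 averaged 7.27 ± 0.69 at day 3 and 8.50 ± 0.47 at day 0 (SD, n = 3 lines), a change of -1.24 ± 0.23 (SE, limma adjusted p = 0.0423). At day 7 it averaged 8.35 ± 0.49, which was 1.08 ± 0.23 above day 3 (limma adjusted p = 0.0784) and -0.16 ± 0.23 from day 0 (adjusted p = 0.764). When single arrays or lines were dropped, the day 3 call held without PKm1 knock-in day 7 or PKm2 knock-in day 7. It was lost without any other array or without any line (adjusted p = 0.0831 to 0.312), with no filter (0.0712), with the slide as a block (0.0557), and without the line as a block (0.131). Id4 correlated with the fibroblast mean at r = 0.75 over the 9 arrays.

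Id3 had the same low point at day 3 and was lower in the PKm2 knock-in line than in wild type on every day. Its log2 signal was 12.35, 10.38 and 11.51 at days 0, 3 and 7 in PKm1 knock-in cells, 10.91, 9.75 and 10.70 in the PKm2 knock-in line, and 12.35, 11.73 and 11.99 in wild type. Every PKm2 knock-in array was below every wild type array, and the PKm1 knock-in arrays spanned both. Day 3 against day 0 gave -1.25 ± 0.28 (SE, n = 3 lines, limma adjusted p = 0.0623), lower in 3 of 3 lines. Id3 was called there with normexp (adjusted p = 0.0371), quantile normalization (0.0447), scaling to detected probes (0.0416), trend and robust moderation (0.0345) and detection on all 9 arrays (0.0454). It was not called with the slide as a block (0.0508) or with any array or line left out (limma adjusted p = 0.0543 to 0.267). Among the alternatives other than leaving out samples, limma's adjusted p reached 0.257. In the PKm2 knock-in line Id3 averaged 10.45 ± 0.62, against 12.02 ± 0.31 in wild type (SD, n = 3 days), a difference of -1.57 ± 0.28 that missed the threshold (limma adjusted p = 0.118), and -1.49 when blocked by slide. The line accounted for 56.1% of its sum of squares and the day for 36.0%. Id3 correlated with the fibroblast mean at r = 0.79. That list was also lower in the PKm2 knock-in line than in wild type for 16 of 17 genes, with a median of -1.24, and its part in the Id3 difference was not tested.

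Id1 and Id2 behaved otherwise. Id1, the member most used as a readout of BMP activity, read 10.87, 11.69 and 11.98 at days 0, 3 and 7 in PKm1 knock-in cells, 12.51, 11.80 and 11.57 in the PKm2 knock-in line, and 10.74, 10.92 and 11.31 in wild type. The PKm1 knock-in and wild type series climbed while the PKm2 knock-in series dropped, and the 3 PKm2 knock-in arrays lay above the 3 wild type arrays, by 1.77, 0.88 and 0.27 at days 0, 3 and 7. Against wild type Id1 was 0.97 ± 0.39 higher in the PKm2 knock-in line (SE, n = 3 days, limma adjusted p = 0.354), on 3 of 3 days, and 1.30 when blocked by slide. Id1 and Id3 lay on opposite sides of wild type in the PKm2 knock-in line, and over the 9 arrays they correlated at r = -0.66. Day 3 against day 0 gave 0.09 ± 0.39 for Id1 (limma adjusted p = 0.909), and the sign turned with quantile normalization (-0.06) and with scaling to detected probes (-0.08).

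Id2 was close to one level at day 3 and highest at day 7. It read 9.54, 10.28 and 12.18 at days 0, 3 and 7 in PKm1 knock-in cells, 10.55, 10.26 and 11.35 in the PKm2 knock-in line, and 10.84, 10.28 and 11.12 in wild type. All day 7 arrays were above all arrays of the earlier days, and the day 3 arrays differed by an SD of 0.00976. Day 7 was 1.27 ± 0.43 above day 3 (SE, n = 3 lines, limma adjusted p = 0.116) and 1.24 ± 0.43 above day 0 (adjusted p = 0.278), so neither passed, and blocking by slide gave 1.43 and 1.40. The change at day 7 against day 0 was 2.64 in the PKm1 knock-in line, 0.80 in the PKm2 knock-in line and 0.28 in wild type. Id2 correlated with the visceral endoderm mean at r = 0.88.

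The ligand genes parted. Bmp4 read 13.39, 12.78 and 11.58 at days 0, 3 and 7 in PKm1 knock-in cells, 13.81, 13.32 and 13.00 in the PKm2 knock-in line, and 14.02, 13.05 and 12.82 in wild type. It dropped at each step in each line, and the day 0 arrays lay above all arrays of days 3 and 7. Day 3 against day 0 gave -0.69 ± 0.26 (SE, n = 3 lines, limma adjusted p = 0.155) and day 7 against day 0 gave -1.28 ± 0.26 (adjusted p = 0.159), with the largest drop of a line, -1.81, in the PKm1 knock-in line. A second Bmp4 probe read 2.70 to 4.81, was well above background on only 2 arrays, PKm2 knock-in day 7 and wild type day 3, and failed the filter. Bmp4 correlated with the visceral endoderm mean at r = -0.84 and with the pluripotency mean at r = 0.80. The rank correlations were -0.52 and 0.70. The PKm1 knock-in day 7 array had the highest visceral endoderm mean, 14.54, and the lowest Bmp4 signal.

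Bmp2 was absent from the detected signals at day 3 and reached its highest values at day 7. It read 5.14, 3.82 and 10.84 at days 0, 3 and 7 in PKm1 knock-in cells, 6.97, 3.13 and 5.52 in the PKm2 knock-in line, and 7.11, 4.30 and 9.25 in wild type, and no day 3 array was well above background. The order at day 7 was PKm1 knock-in, wild type, PKm2 knock-in, with gaps of 1.58 and 3.73 between neighbours and no repeat array to set them against. Where a probe was undetected on the whole dimmer side, the fold is a bound, the brighter mean over the lowest detected signal of each array or the probe's own if higher. Bmp2 was at least 18.7-fold higher at day 7 than at day 3 (8.54 ± 2.73 against 3.75 ± 0.59, SD, n = 3 lines, limma adjusted p = 0.0851), a bound on the means. The log2 change was 7.02 in the PKm1 knock-in line, 2.39 in the PKm2 knock-in line and 4.95 in wild type. Day 3 against day 0 was at least 4.29-fold lower (3.75 ± 0.59 against 6.41 ± 1.098, adjusted p = 0.208). Without the PKm2 knock-in day 7 array the day 7 to day 3 change passed, at 6.28 with limma adjusted p = 0.0172, and it also passed without the PKm2 knock-in line (5.99, 0.0317) and with the slide as a block (6.28, 0.0362). It was 3.34 (adjusted p = 0.194) without PKm1 knock-in day 7, 3.67 (0.362) without the whole PKm1 knock-in line and 2.70 with normexp. Bmp2 correlated with the visceral endoderm mean at r = 0.82, and the part of that list in its day 7 level was not tested.

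Msx2, a homeobox gene induced by BMPs in many embryonic tissues, followed Bmp2. Its log2 signal was 7.66, 6.63 and 9.52 at days 0, 3 and 7 in PKm1 knock-in cells, 7.64, 6.95 and 7.20 in the PKm2 knock-in line, and 7.96, 6.84 and 9.996 in wild type. Day 3 was lowest in every line, and at day 7 the PKm1 knock-in and wild type arrays were the highest while the PKm2 knock-in array stayed under its own day 0 value. Day 7 was 2.10 ± 0.58 above day 3 (SE, n = 3 lines, limma adjusted p = 0.0936). Without the PKm2 knock-in day 7 array this was 2.96 (adjusted p = 0.00507), without the PKm2 knock-in line 3.03 (0.0141) and with the slide as a block 2.96 (0.0159). It was 1.62 (0.262) without wild type day 7, 1.73 (0.251) without PKm1 knock-in day 7, and as low as 1.57 (0.462), without the whole wild type line. Day 7 against day 0 gave 1.15 ± 0.58 (adjusted p = 0.415), and 2.01 without the PKm2 knock-in day 7 array (limma adjusted p = 0.0306). Day 3 against day 0, -0.95 ± 0.58 (adjusted p = 0.341), passed without that array too (0.0399). Over the 9 arrays Msx2 correlated with Bmp2 at r = 0.93, and at 0.86 without the 2 arrays farthest from the Bmp2 median.

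Msx1, its close relative, had no called change. It read 6.10, 5.997 and 7.39 at days 0, 3 and 7 in PKm1 knock-in cells, 6.78, 5.92 and 5.88 in the PKm2 knock-in line, and 6.32, 5.69 and 6.20 in wild type. The PKm1 knock-in day 7 array was the highest and the other 8 lay within 5.69 to 6.78. Day 7 against day 3 gave 0.62 ± 0.39 (SE, n = 3 lines, limma adjusted p = 0.319), and 56.8% of the Msx1 sum of squares was left to neither line nor day.

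Smad6, whose product blocks BMP receptors and SMAD1 in a feedback loop, was lower in the PKm2 knock-in line than in wild type on every day. It read 5.13, 5.27 and 7.88 at days 0, 3 and 7 in PKm1 knock-in cells, 5.16, 3.05 and 5.37 in the PKm2 knock-in line, where the day 3 array was not well above background, and 6.67, 7.64 and 7.91 in wild type. All 3 PKm2 knock-in arrays were below all wild type arrays, and at day 7 the PKm1 knock-in array met the wild type level. Smad6 averaged 4.53 ± 1.28 in the PKm2 knock-in line and 7.41 ± 0.65 in wild type (SD, n = 3 days), a difference of -2.88 ± 0.65 (SE, limma adjusted p = 0.143). Set at the detection limit for its undetected array, the PKm2 knock-in line was 5.43-fold lower. The difference was -2.46 when blocked by slide and -1.23 with normexp. Day 7 against day 3 gave 1.73 ± 0.65 (adjusted p = 0.136), and day 3 against day 0, -0.34 ± 0.65, turned sign with normexp background correction (0.03) and a floor of 20 (0.09).

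Against day 0, 9 of 10 genes were lower at day 3, with a median log2 change of -0.82, while over all genes the median was 0.09 and 43.2% were lower. In limma 2 of the 10 fell (Grem1 and Id4) and 0 rose. Of all genes tested 4.05% were called, 278 higher and 330 lower, and 1.85% were called higher and 2.2% lower. An unadjusted p under 0.05 was reached by 4 of the 10 (Bmp4, Id3, Id4 and Grem1), against 26.2% of all genes. The split was 192 higher and 437 lower with scaling to detected probes, and 559 and 368 with normexp. Scaling to detected probes moved the median of all genes to -0.08 and that of the 10 genes to -0.99, and 10 of 10 were then lower. The day 3 arrays did not overlap the day 0 arrays for 6 members (Bmp2, Bmp4, Id4, Msx1, Msx2 and Grem1), and 36.3% of all genes did not overlap.

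Against day 3, 9 of 10 were higher at day 7, with a median of 0.93 beside -0.13 for all genes. The exception was Bmp4, at -0.58 ± 0.26 (SE, n = 3 lines, limma adjusted p = 0.182). In limma 0 of the 10 and 0% of all genes were called, while 6 of the 10 had an unadjusted p under 0.05, against 30.3% of all genes. Bmp2, Id2, Id4 and Msx2 did not overlap between day 7 and day 3, as for 31.7% of all genes. At day 7 against day 0 the 10 genes were divided, 6 higher and 4 lower with a median of 0.17 (all genes -0.04), or 0.57 when blocked by slide (all genes -0.10). Grem1 was the only member called, where 0.0933% of all genes were called 0.00666% called higher and 0.0866% called lower. Bmp4, Id2 and Grem1 did not overlap, as for 15.8% of all genes. The comparisons of days share arrays, and their values are therefore not independent. An F test over the 3 days in limma called Grem1 (adjusted p = 0.0222), where 1.19% of all genes were called. Id4 had 0.0664, Bmp4 0.0846 and Id3 0.0978, and 7 of the 10 had an unadjusted p under 0.05, against 29.9% of all genes.

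**Figure D3:**
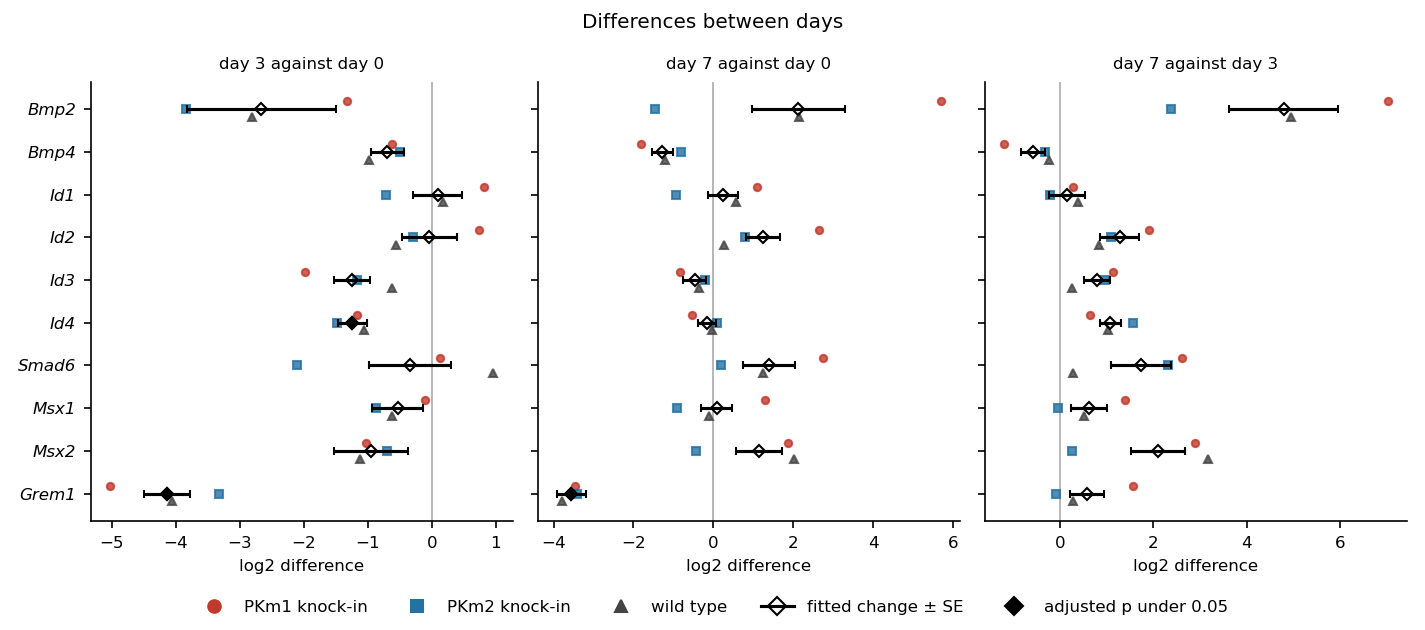
Log2 change of each gene for day 3 against day 0, day 7 against day 0 and day 7 against day 3 (x axes), with 1 coloured point per line, and the fitted change with its SE as a diamond, filled where the limma adjusted p is under 0.05. Filled diamonds are those of Grem1 (-4.13) and Id4 (-1.24) at day 3 and of Grem1 (-3.55) at day 7.

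Between lines no member passed. In the PKm2 knock-in line 7 of 10 were lower than in wild type, with a median of -0.81 (all genes 0.04), or -0.19 when blocked by slide (all genes 0.02). In limma 0 of the 10 were called, where 0.0133% of all genes were, and 4 of the 10 (Id1, Id3, Id4 and Smad6) had an unadjusted p under 0.05, against 13.4% of all genes. Id4 was -1.04 ± 0.23 from wild type (SE, n = 3 days, limma adjusted p = 0.138), lower on 3 of 3 days. Id1, Id3 and Smad6 did not overlap between these lines, as for 14.4% of all genes. Day 0 of both lines lay on slide 1, where the PKm2 knock-in array differed from wild type by 1.77 for Id1, -1.43 for Id3, -0.94 for Id4 and -1.51 for Smad6.

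The PKm1 knock-in line was lower than wild type for 8 of 10 genes, with a median of -0.45 (all genes 0.05). In limma 0 of the 10 were called, where 0.0133% of all genes were, and 2 had an unadjusted p under 0.05 (12.3% of all genes). These were Bmp4, at -0.71 ± 0.26 (SE, n = 3 days, limma adjusted p = 0.342), and Id4, at -0.58 ± 0.23 (adjusted p = 0.375), each lower on 3 of 3 days. For 0 of the 10 were the lines without overlap, against 10.2% of all genes. Between the PKm1 and PKm2 knock-in lines 0 of the 10 and 0% of all genes were called in limma. Id3, Bmp4 and Smad6 had an unadjusted p under 0.05 (7.95% of all genes), with differences of 0.96 ± 0.28, -0.79 ± 0.26 and 1.57 ± 0.65, each with adjusted p = 0.627. For 0 of the 10 were these lines without overlap, against 7.55% of all genes. The F test over lines in limma called 0 of the 10, where 0.0133% of all genes were called and 12.9% had an unadjusted p under 0.05; the smallest adjusted p among the 10 was 0.191, for Id3.

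**Figure D4:**
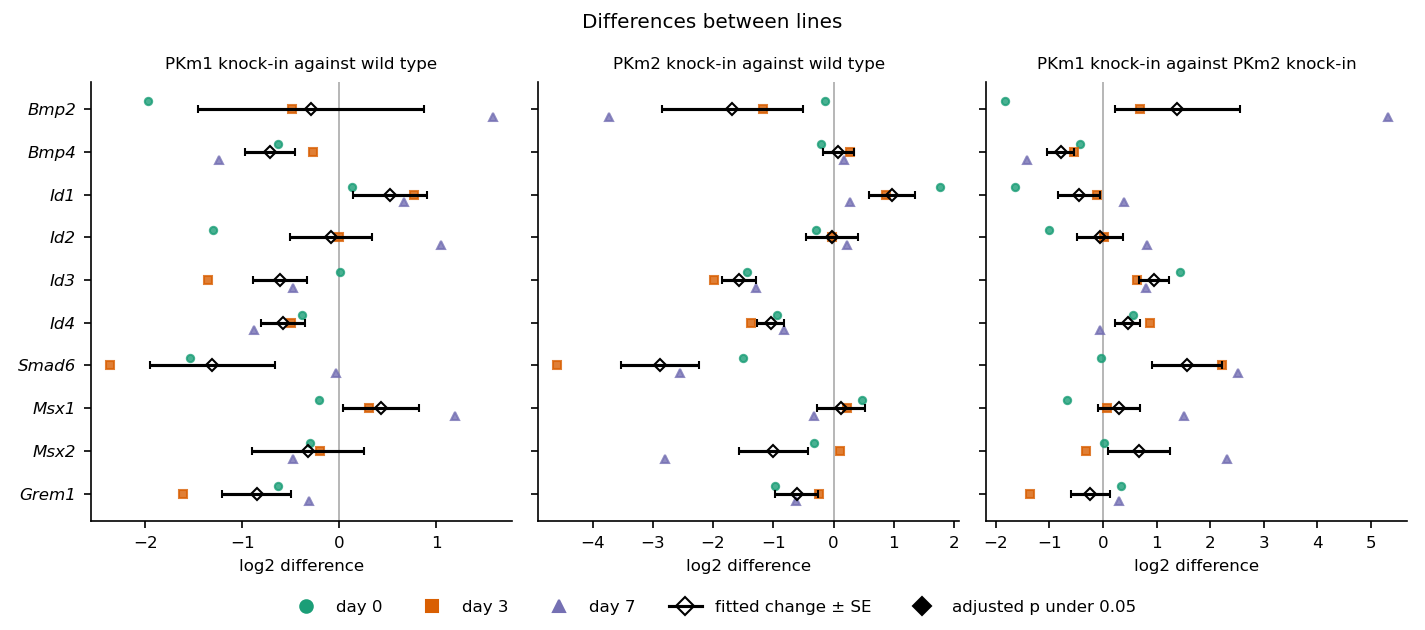
Log2 difference of each gene between lines (x axes: PKm1 knock-in against wild type, PKm2 knock-in against wild type, PKm1 against PKm2 knock-in), with 1 point per day and the fitted difference with its SE as a diamond; no diamond is filled, since no limma adjusted p is under 0.05. For PKm2 knock-in against wild type, all 3 days lie below 0 for Id3, Id4 and Smad6 and above 0 for Id1.

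By their pattern over the 9 arrays, the genes most like each member were found among 13904 genes detected on at least 6 arrays. These are descriptions, since all points share the same arrays. Grem1 was most like Klf4 (r = 0.98), a transcription factor gene of naive pluripotency, and Zfp36l1 (r = 0.97). Bmp2 was most like Pla1a (r = 0.99) and Furin (r = 0.97), which encodes a protease that cuts BMP precursors. Msx2 was most like Antxr2 and Plxna2 (r = 0.99 each), and Msx1 like Zfp711 and AA986860 (r = 0.96 each). Id3 was most like the sphingosine phosphate receptor gene S1pr1 (r = 0.97) and Kctd6 (r = 0.96), and Id1 like Phlpp2 (0.94) and Mss51 (0.93). Slc16a9 was among the 2 genes most like Id4 (r = 0.94). Id2 was most like Nrg2 (0.93) and the apolipoprotein gene Apob (0.92), Smad6 like Nid1 (0.93) and Casq2 (0.92), and Bmp4 like Zfp949 (0.96) and En2 (0.95). Leaving out the 2 arrays farthest from the member's median gave r between 0.70 (Id2 with Nrg2) and 0.99 (Bmp2 with Pla1a). The next lowest were Msx1 with AA986860 (0.78) and Bmp4 with Zfp949 (0.79). Among the members themselves the closest pairs were Bmp2 with Msx2 (r = 0.93) and Id3 with Id4 (r = 0.90, and 0.72 without the 2 arrays farthest from the Id3 median).

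In the rest of the pathway 2 genes were called, both for day 3 against day 0, where 4.05% of all genes were called. Of 7 other BMP and GDF ligand genes tested, 0 were called in limma in any comparison. Named by size of the fitted difference were Bmp3 (PKm2 knock-in against wild type -1.89 ± 0.93, SE, n = 3 days, adjusted p = 0.442), whose PKm2 knock-in day 0 array (3.78) was not well above background, and Bmp8b (-1.60 ± 0.49, adjusted p = 0.239). Bmp8b read 6.63, 5.51 and 5.27 at days 0, 3 and 7 in PKm2 knock-in cells and 6.76, 7.29 and 8.17 in wild type. These arrays did not overlap, as for 14.4% of all genes. Of 11 receptor and co-receptor genes 0 were called. Hjv, the hemojuvelin co-receptor gene, was detected on the 3 day 3 arrays only, at 5.74, 5.04 and 5.24 in the PKm1 knock-in, PKm2 knock-in and wild type lines. These arrays alone carried it through the filter, so its difference between days is not given as a test. Bmpr1b, a receptor gene, was detected on 3 of 9 arrays. The SMAD genes Smad1 and Smad5, which carry the signal to the nucleus, had no change over 0.51 in size, and 0 of 3 SMAD genes were called.

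Among 13 secreted antagonist genes other than Grem1, 10 were lower at day 3 than at day 0 and 11 were higher at day 7 than at day 3, with medians of -0.77 and 1.27. Fstl1, which encodes a follistatin-like glycoprotein, was the only one called, at day 3, where 2.2% of all genes were called lower. It read 12.45, 11.35 and 12.72 at days 0, 3 and 7 in PKm1 knock-in cells, 12.96, 11.53 and 12.53 in the PKm2 knock-in line, and 13.37, 12.42 and 13.88 in wild type, so that the day 3 arrays lay below those of day 0. It fell by 1.16 ± 0.22 on the log2 scale at day 3 (SE, n = 3 lines, limma adjusted p = 0.0461, or 0.0562 when blocked by slide). Of 7 intracellular and membrane inhibitors 1 was called, where 1.85% of all genes were called higher at day 3. This was Skil, which encodes the SMAD corepressor SnoN. It rose by 1.42 ± 0.28 at day 3, to 11.84, 11.67 and 11.33 in the PKm1 knock-in, PKm2 knock-in and wild type lines, against 9.95, 10.75 and 9.88 at day 0 (limma adjusted p = 0.0480, or 0.0532 when blocked by slide). Of 8 other BMP-responsive transcription factor genes 0 were called. Hand1, a mesoderm gene, was not detected at day 3 (day 7 against day 3, limma adjusted p = 0.114). At day 7 it read 6.96 in the PKm1 knock-in line, 6.94 in wild type and 3.67, not well above background, in the PKm2 knock-in line. Cdx2, a trophoblast and hindgut gene, gave 2.26 ± 1.34 between day 7 and day 3 (adjusted p = 0.290). Its PKm2 knock-in arrays of both days and its wild type day 3 array were not well above background. Of the 3 E protein genes 0 were called, with the largest differences in Tcf12 (PKm1 knock-in against wild type -0.84 ± 0.21, adjusted p = 0.206) and Tcf3 (day 7 against day 3 -0.51 ± 0.19, adjusted p = 0.138). Over the 6 comparisons an unadjusted p under 0.05 was reached by 0 to 2 of the ligand genes, 0 to 3 of the receptor genes, 0 to 1 of the SMAD genes, 0 to 6 of the secreted antagonist genes, 0 to 1 of the inhibitor genes, 0 to 2 of the transcription factor genes and 0 to 2 of the E protein genes, where 7.95 to 30.3% of all genes reached it.

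**Figure D5:**
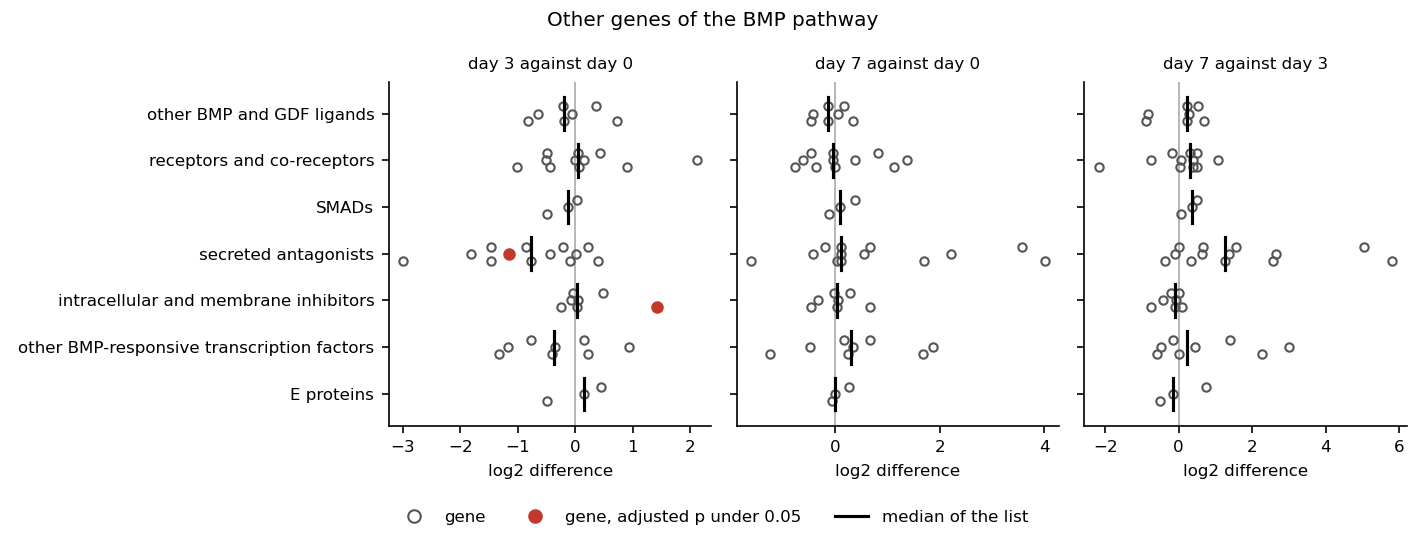
Log2 difference (x axes) of each tested gene in 7 other BMP gene lists, 1 open point per gene, for day 3 against day 0, day 7 against day 0 and day 7 against day 3, with the median of each list as a bar. The 2 filled points are the called genes, Fstl1 (-1.16) and Skil (1.42), both for day 3 against day 0.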

How the data were processed

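Total RNA of the 9 samples was labelled with Cy3 and hybridised to 1-colour Agilent mouse arrays, per the labels. The authors read out spot intensity with Feature Extraction (Agilent, version 10.10), per the submitters' processing notes; per the file headers the values used are processed signals after background subtraction. The value table deposited beside the scanner files holds the same intensities rounded (largest difference 0.497%), and 0 of its columns lacked a sample. Of 62976 spots per array, 3671 controls and 133 to 225 flagged spots were left out. Probes were named by RefSeq accession: 27235 of 55681 received a symbol.

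The log2 values were computed here from the deposited intensities. Each array was brought to the same 75th percentile, values under 5 were set to 5, and log2 was taken. A probe had to be detected (well above background) on 3 or more of the 9 arrays, and the brightest probe by mean represented its gene, leaving 15011 genes. The limma 3.58.1 fit (R 4.3.3, data.table, version 1.17.8) used line and day as additive terms over the 9 arrays. Benjamini-Hochberg adjustment covered the 15011 genes, with calls made under 0.05. The fit was tested on simulated data. Files were read in Python 3.11.15 (pandas 2.3.3, numpy 2.4.6) and plots drawn in matplotlib 3.10.9. The median SE of a log2 change was 0.260, limited by the number of arrays.

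All 10 members are reported. From each other pathway list the called genes are named, or the 2 with the largest change where none was called, and for each member the 2 genes most like it, of which 1 is not reported here. Members and lists were chosen with earlier results of these data known. Alternatives were other background corrections, normalizations, filters, floors, probe rules and moderation, values of that deposited table, no block, the slide as a block, the 6 arrays compared, a threshold of 0.1, and leaving out each array, line or day. Normexp (offset 50) used the median foreground and background columns. The replicate of a day is the line and of a line the day, so line and day are the blocks of the fit.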

Additional observations from a re-analysis of the deposited data

Results flagged for a closer look

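Bmp2 moved in opposite directions between day 0 and day 7. Its log2 change at day 7 was 5.69 in the PKm1 knock-in line and 2.14 in wild type, where the array of the later day was the brighter, but -1.45 in the PKm2 knock-in line, whose day 7 array was alone on its slide. Each value is a difference between single arrays, and the difference between the lines was not tested. The visceral endoderm mean on the same day 7 arrays was 14.54, 8.82 and 8.11 in the order PKm1 knock-in, wild type, PKm2 knock-in, and its part in the Bmp2 values was not tested.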

How the results depend on the processing

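Precision was limited by 9 arrays with no repeat of a line and day, and by dim signals for Bmp2 and Smad6. Of 768 values of single genes under alternatives other than leaving out samples, 739 kept their direction and side of the threshold, 9 lost the call, 9 gained it and 11 turned sign; of 720 with an array, line or day left out, 639 kept both, 24 lost the call, 6 gained it and 51 turned sign. The causes were not tested. No member was called between lines under any alternative run. For day 3 against day 0, 2 members were called (608 of all genes). There were 1 without the filter (149 of all genes) and 1 with the slide as a block (579), Grem1 each time. With only the 6 arrays compared 4 were called (Bmp2, Grem1, Id4 and Msx2, with 1426 of all genes). There were 3 each (Grem1, Id3 and Id4) with normexp (559 higher and 368 lower of all genes), quantile normalization (205 and 261) and scaling to detected probes (192 and 437). The same 3 were called with trend and robust moderation and with detection on all 9 arrays, and 0 to 3 with an array or line left out. The line is the replicate of a day: with no replicate block 1 member was called (Grem1, with 479 of all genes). For day 7 against day 0, 1 was called (14 of all genes). None was called without the filter (4 of all genes), with only the 6 arrays (0), with quantile normalization (5) or with scaling to detected probes (6). The same held with the slide as a block (21) and with detection on all 9 arrays (1), where Bmp2 and Smad6 dropped out. Leaving out samples gave 0 to 2, the 2 (Grem1 and Msx2) without PKm2 knock-in day 7 (227 of all genes). For day 7 against day 3, 0 were called, 3 at an adjusted p under 0.1 (1943 of all genes) and 2 with the slide as a block (985 of all genes). With samples left out there were 0 to 2, the 2 without PKm2 knock-in day 7 (2383 of all genes) or the PKm2 knock-in line (1438). For the F test over days, 1 was called (179 of all genes), 4 at 0.1 (1600) and 0 without the filter (3). There were 2 each with normexp (569), scaling to detected probes (199), the slide block (725), trend and robust moderation (678) and detection on all 9 arrays (425). With samples left out there were 0 to 5, the 5 without PKm2 knock-in day 7 (2005 of all genes).

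The sign of small differences turned. With the slide as a block the value was -0.20 for Bmp2, -0.17 for Msx1 and -0.12 for Msx2 (PKm1 against PKm2 knock-in), and -0.21 for Bmp4 and 0.11 for Id2 (PKm2 knock-in against wild type). Normexp gave 0.22 for Bmp2 (PKm1 knock-in against wild type) and 0.032 for Smad6 (day 3 against day 0, 0.086 with a floor of 20). Quantile normalization gave -0.064 for Bmp4 (PKm2 knock-in against wild type) and -0.060 for Id1 (day 3 against day 0, -0.078 with scaling to detected probes). With samples left out, ranges that crossed 0 were, for PKm1 against PKm2 knock-in, -0.57 to 3.00 (Bmp2), -0.53 to 0.32 (Grem1), -0.87 to 0.15 (Id1), -0.56 to 0.49 (Id2), -0.30 to 0.80 (Msx1) and -0.18 to 1.20 (Msx2). For PKm1 knock-in against wild type they were -1.74 to 0.94 (Bmp2), -0.65 to 0.53 (Id2), -0.065 to 0.84 (Msx1) and -0.70 to 0.16 (Msx2). For PKm2 knock-in against wild type they were -0.10 to 0.25 (Bmp4), -0.38 to 0.34 (Id2) and -0.21 to 0.54 (Msx1). For day 3 against day 0 they were -0.30 to 0.59 (Id1), -0.58 to 0.33 (Id2) and -1.03 to 0.55 (Smad6), for day 7 against day 0 -0.18 to 0.83 (Id1), -0.34 to 0.043 (Id4) and -0.51 to 0.59 (Msx1), and for day 7 against day 3 -0.10 to 0.54 (Id1).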

Other observations

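The secreted antagonist genes Bmper and Cer1 were chosen after their values were seen. Bmper, which encodes an extracellular BMP-binding protein, read 11.31 in the PKm1 knock-in line, 5.88 in the PKm2 knock-in line and 7.64 in wild type at day 7, and was detected on no day 3 array. It was higher at day 7 than at day 3 in 3 of 3 lines. Outside day 7 it was detected only in wild type at day 0 (5.08), so its day 7 arrays carried it through the filter. Its difference between days is therefore not given as a test. Cer1, an antagonist gene of the anterior visceral endoderm, read 7.73 in the PKm1 knock-in line, 3.64 in the PKm2 knock-in line, where it was not well above background, and 10.83 in wild type at day 7. It was detected on no day 3 array (day 7 against day 3, limma adjusted p = 0.114, n = 3 lines). With the PKm2 knock-in array undetected on both days, no bound on its fold is given.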
